A study of Mus musculus with 12 samples.

Results

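Ribosome footprints were compared between asynchronously growing cells that carried RPL12 S38A and those that carried wild-type (WT) RPL12. The 4 libraries of this comparison, 2 for each genotype, were taken by their labels from the 12 libraries of the study. All lines derive from 19PP, a mouse B cell lymphoma that arose in a Rag2-/-γC-/- host given bone marrow of the genotype Cγ1-Cre; Myc/P110*flSTOP, where Cre from the Cγ1 locus, active in B cells set on IgG1, turns on Myc and an active PI3K subunit. Per the labels' protocols, a subline named 19DN was cultured, from which the GFP and hCD2 reporters had been deleted with Flp, and every group shares this background. The remaining 8 libraries were those of RPL12 S38D cells in the asynchronous state and of all 3 genotypes after 8 hr in 100 ng/mL nocodazole and 10 min in fresh medium, which the labels call mitotic. The labels do not say how the substitutions were made, how many clones stand for a genotype, or whether replicates were grown apart. A difference between genotypes is therefore one between the cells so labelled, and p-values weigh it against a spread that may be purely technical. All cells were harvested in 100 µg/mL cycloheximide, which holds ribosomes in place.

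RPL12, also known as uL11, sits at the base of the stalk of the large ribosomal subunit, the flexible arm that recruits and activates the GTPases of translation. Serine 38 can carry a phosphate, alanine at this position cannot, and aspartate brings a negative charge like that of a phosphate. Ribosome profiling reads out where ribosomes stand on mRNA by sequencing the short fragments they shield from nuclease, here of 27 to 30 nt. The count of footprints in a coding sequence reflects both how much of the mRNA is present and how heavily it is translated. RNA-seq was not used here, so the values are footprint levels and not translation efficiencies.

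The 4 libraries held 258354 and 302808 coding reads for WT and 397435 and 323093 for S38A, so the S38A libraries were the deeper ones. A floor of 3 reads in a single one of these libraries corresponds to 7.55 to 11.6 CPM (read counts scaled to a common total) of its coding reads. Alignments to several places made up 68.3 and 66.3% of all alignments in WT and 62.3 and 62.8% in S38A libraries, and 73.0 and 73.0% against 70.4 and 65.8% in mitotic cells. In neither state did these percentages overlap between genotypes, and their part in the differences below was not tested, nor was that of depth. Neither the level of RPL12 nor any B cell marker could be read, because the tables used here pair none of the 22520 Ensembl gene IDs with a name. Genes are therefore given by ID, at most 2 in each direction of a comparison, and the labelled cell type could not be checked.

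S38A cells differed from WT cells in both directions, with more genes higher than lower. Of 6692 genes tested with edgeR's quasi-likelihood test, 624 passed a Benjamini-Hochberg adjusted p of 0.05, which is 9.32% of all tested. Of these, 392 (5.86%) were higher and 232 (3.47%) lower in S38A. At least 2-fold differences were seen for 179 of the higher and 113 of the lower genes, and at least 4-fold differences for 24 and 27. The median log2 difference was 0.96 among higher and -0.98 among lower genes, against 0.01 over all genes tested. Because the values are relative to each library's total, the excess of higher genes does not speak to total footprints per cell. With libraries scaled to their totals alone it was 333 higher and 294 lower. Of the called genes, 616 had libraries of both genotypes that did not overlap in CPM, which is from here on scaled to the reads of tested genes after TMM normalization. This is a condition that 49.1% of all genes tested met. The number of calls rested on each library. It was 422 without WT replicate 1, 327 without WT replicate 2, 262 without S38A replicate 1 and 406 without S38A replicate 2, and DESeq2 called 238 genes, all among the 624.

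For a typical gene, the genotype means differed by little more than 2 single libraries of a genotype did. Among 4248 genes with a mean of at least 50 CPM, the median absolute log2 difference between the libraries of a genotype was 0.25 in WT and 0.21 in S38A. The difference between the genotype means had a median of 0.28. A mean of 2 libraries varies less than a single library. These values, and the percentages next, therefore do not set genotype against replicate spread on equal terms. A difference of 1 or more on the log2 scale was found for 4.40% of these genes between genotypes, for 2.24% between the WT libraries and for 0.824% between the S38A libraries. Counting error alone would give a chi-square near its degrees of freedom between replicates, and the ratio was 1.69 in WT and 1.25 in S38A. Reads copied in PCR could also raise this ratio, which was not tested.

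Calls were concentrated among abundant genes, where counting error is small. The genes were cut into 5 bins of nearly equal size by mean CPM. In the highest bin, from 178 CPM upward, 207 genes were higher and 91 lower, which is 22.3% of 1339. In the lowest bin, up to 33.2 CPM, 15 were higher and 17 lower, which is 2.39% of 1340. The median standard error of the log2 difference was 0.19 in the highest and 0.55 in the lowest bin. The median size of a called log2 difference was 0.73 in the highest and 2.42 in the lowest bin, so a moderate difference in a weakly translated or rare mRNA would not have been called here. The largest fitted differences, including the genes named next, lay mostly toward the low end of the range of levels. Genes at least 4-fold higher had a median level of 40.0 CPM and those at least 4-fold lower 31.8 CPM, beside 70.4 CPM over all genes tested. An exception was ENSMUSG00000031004.8, described below, with a log2 difference of 2.87 and rank 7 by level among the 392 higher genes.

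**Figure D1:**
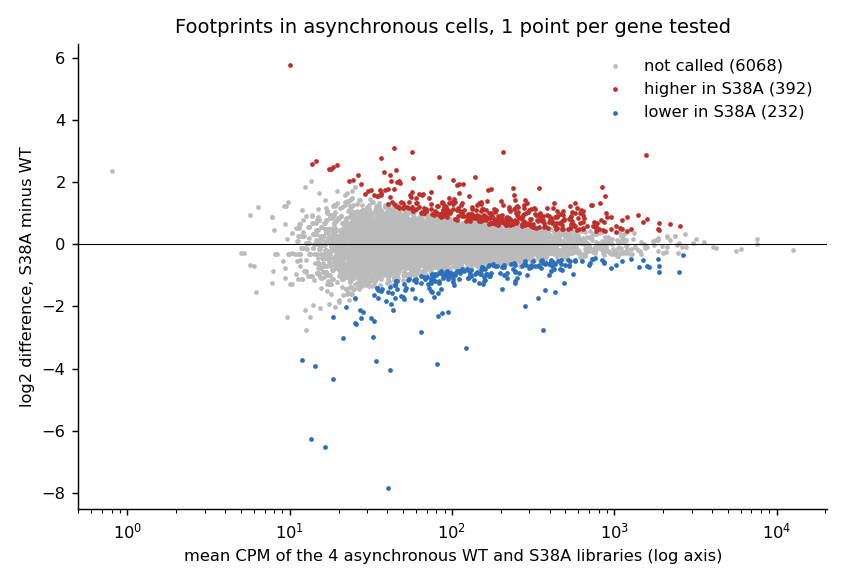
Each point is 1 of the 6692 genes tested, with its mean CPM over the 4 asynchronous WT and S38A libraries on a log axis and its log2 difference, S38A minus WT, on the vertical axis. Red points (392) were higher and blue points (232) lower in S38A, and the smallest difference that was called shrinks toward high levels.

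The genes named first are the 2 in each direction with the largest fitted log2 difference among called genes with a mean of at least 10 CPM whose libraries did not overlap. ENSMUSG00000045826.8 had the largest fitted difference. It had 86.0 and 76.3 CPM in the asynchronous WT libraries and 0 reads in both S38A libraries. It was lower in S38A (adjusted p = 7.09e-09, edgeR quasi-likelihood test). For a fold value, S38A was counted as 3 reads in both libraries together, the floor used for each gene without reads. Against this floor the gene was 18.6-fold lower in S38A on the TMM scale and 19.3-fold by total coding reads. Such a floor value takes the reads of the other genotype as they stand. It leaves out their counting error and is not a lower bound. The asynchronous S38D libraries were low as well, at 4.10 and 2.22 CPM (S38D against WT, adjusted p = 4.38e-08, edgeR). In mitotic cells it had 93.9 and 90.7 CPM in WT and 2.33 and 0 CPM in S38A libraries, 63 reads against 1, a ratio by total coding reads, as for all ratios below, of 75.2 with a 95% counting interval of 13.0 to 3010 (adjusted p = 3.07e-10, edgeR). The S38A libraries were thus at or near 0 in both states.

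ENSMUSG00000024799.14 followed among the lower genes. It had 39.1 and 26.5 CPM in WT libraries and again 0 reads in both S38A libraries (adjusted p = 0.000411, edgeR). Against the same floor it was 7.46-fold lower in S38A on the TMM scale and 7.70-fold by total coding reads. Its WT level rests on 18 reads. The asynchronous S38D libraries stood at 24.6 and 8.86 CPM, which did not pass the test against WT (log2 difference -0.91 ± 0.57, SE, adjusted p = 0.480, edgeR) and did differ from S38A (adjusted p = 0.00942, edgeR). In mitotic cells, WT libraries had 30.2 and 41.5 CPM and S38A libraries 7.00 and 0 CPM, a ratio of 9.94 with a 95% counting interval of 3.03 to 51.4 (adjusted p = 0.0017, edgeR). Across the data, 6 genes had 0 reads in both asynchronous S38A libraries and at least 10 in the WT libraries together, and 1 gene showed the reverse.

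ENSMUSG00000032452.12 was the better measured of the higher genes. Its level was 11.7 and 6.63 CPM in WT and 88.7 and 67.9 CPM in S38A libraries, so that the means were 9.18 ± 3.60 and 78.3 ± 14.7 CPM (SD, n = 2 for each genotype). S38A was higher by a log2 difference of 3.09 ± 0.53 (SE, adjusted p = 1.47e-05, edgeR). The asynchronous S38D libraries lay near WT, at 10.3 and 19.9 CPM, and S38D differed from S38A (log2 difference -2.38 ± 0.41, SE, adjusted p = 2.54e-05, edgeR). Mitotic libraries kept the order, with 6.71 and 10.4 CPM in WT against 37.4 and 47.7 CPM in S38A (adjusted p = 0.00326, edgeR).

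ENSMUSG00000034156.16 had 0 reads in both WT libraries and 7.83 and 32.3 CPM in the S38A libraries, which together held 13 reads. Against the same floor S38A was 3.49-fold higher on the TMM scale and 3.37-fold by total coding reads (adjusted p = 0.0185, edgeR). Its place among the largest differences comes from the fitted log2 difference of 5.76 ± 1.69 (SE) over a group without reads. Its floor value, which has no interval, is below the ratio of ENSMUSG00000032452.12, 8.57 with a 95% counting interval of 3.46 to 27.4. The call was lost without WT replicate 1, WT replicate 2 or S38A replicate 2, with adjusted p-values of 0.109, 0.161 and 0.279. Asynchronous S38D libraries, at 8.21 and 6.65 CPM, passed neither the test against WT nor that against S38A (adjusted p = 0.253 and 0.317, edgeR). In mitotic cells the gene had 10.1 and 0 CPM in WT and 30.4 and 42.4 CPM in S38A libraries, which did not overlap (ratio 8.10, 95% counting interval 2.51 to 41.6, adjusted p = 0.00553, edgeR).

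**Figure D2:**
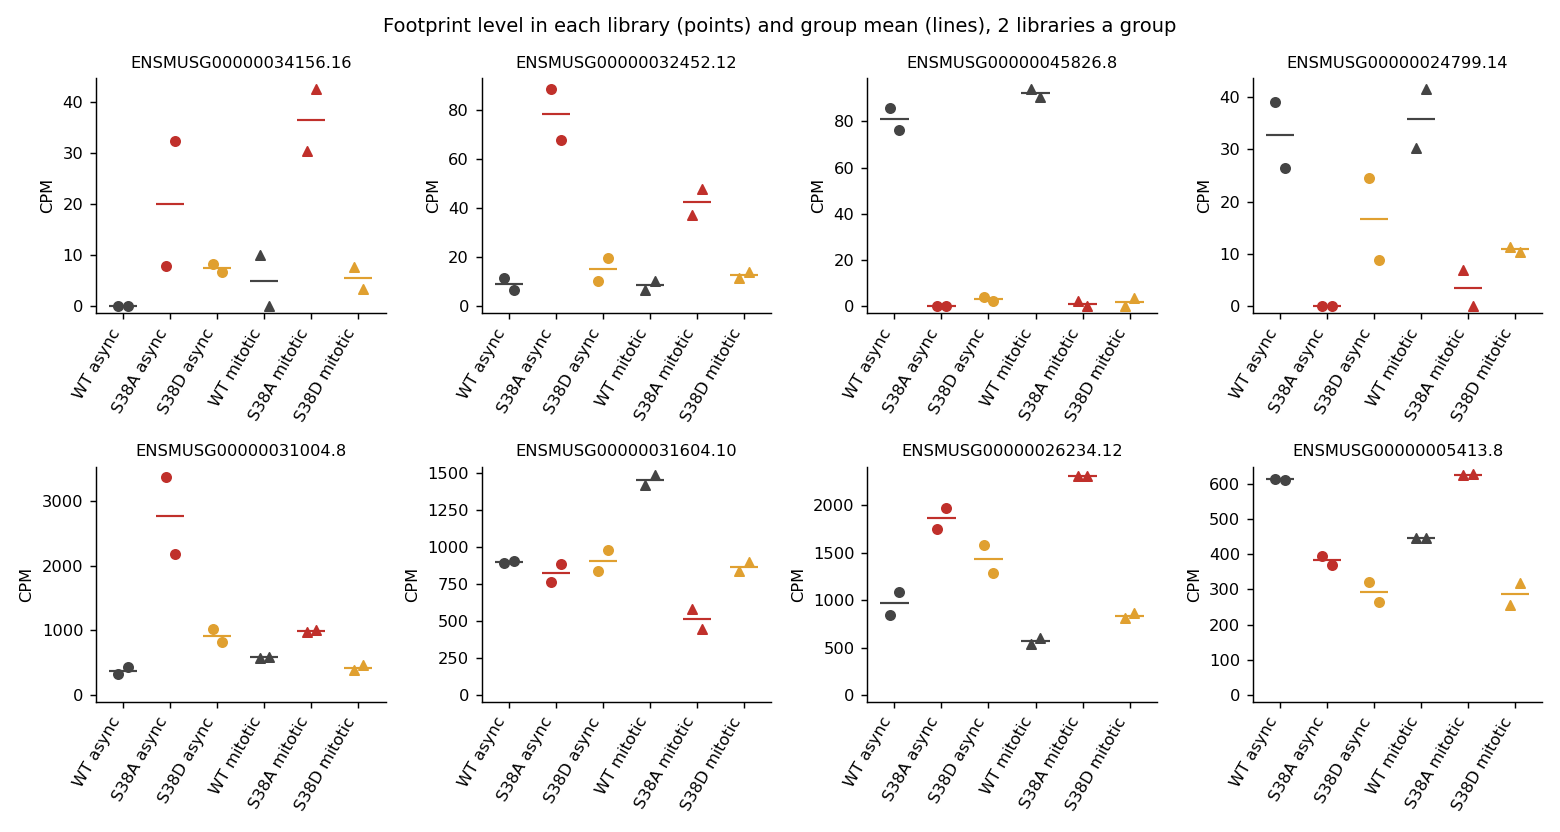
CPM in each of the 12 libraries (points: circles asynchronous, triangles mitotic) and the mean of each group of 2 (lines), for the 2 genes with the largest fitted difference in each direction in asynchronous cells (upper row) and 4 genes whose difference changed with the state (lower row). In the third panel of the upper row both WT groups lie between 76.3 and 93.9 CPM and every S38A and S38D library at or under 4.10 CPM.

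The mitotic libraries, none of which entered the asynchronous groups, allowed the same genes to be measured again. Of the 392 higher genes, 362 (92.3%) were above 0 in mitotic S38A minus WT, with a median log2 difference of 0.77, where 49.0% of all genes tested were above 0. Of the 232 lower genes, 209 (90.1%) were below 0, with a median of -0.56, where 51.0% of all were below 0. The mitotic comparison itself called 221 of the higher genes higher (56.4%, against 7.79% of all genes tested) and 101 of the lower genes lower (43.5%, against 5.44%). It called 4 of the higher genes lower and 1 of the lower genes higher. All 27 genes that were at least 4-fold lower in asynchronous cells were below 0 in mitotic cells, with a median of -2.03 against -2.76, and 17 of them were called. For the 24 genes at least 4-fold higher, the median was 1.01 against 2.40, with 22 above 0 and 11 called. The medians were thus smaller in the state that did not choose the genes.

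With the other substitution the same genes gave medians nearer 0. In mitotic S38D minus mitotic WT, which shares no library with the asynchronous comparison, 254 (64.8%) of the 392 higher genes were above 0, with a median log2 difference of 0.12. Of the 232 lower genes, 154 (66.4%) were below 0, with a median of -0.21. Over all genes tested, 49.4% were above and 50.6% below 0. The genes at least 4-fold lower in S38A had a median of -1.28 in S38D, and 23 of the 27 were below 0. The genes at least 4-fold higher had a median of -0.05, with 11 of 24 above 0. Whether the differences of S38A and S38D themselves differ was not tested for these lists.

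**Figure D3:**
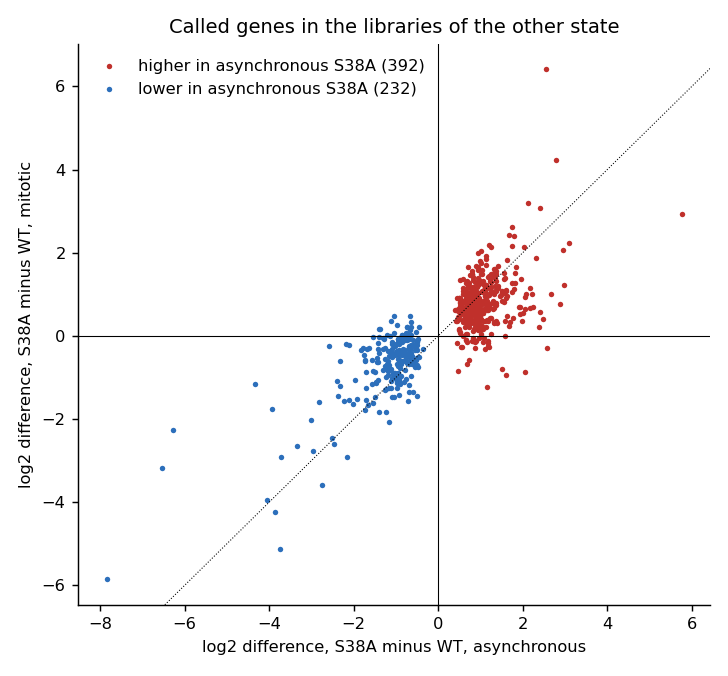
Each point is a gene called in asynchronous cells (392 higher, red, and 232 lower, blue), with its log2 difference S38A minus WT in asynchronous cells on the horizontal and in mitotic cells on the vertical axis. The dotted line marks equal differences. Of the red points 362 lie above 0 on the vertical axis, and of the blue points 209 lie below it.

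S38D cells also gave lists of genes that differ between states. This comparison is of S38D libraries alone, while the filter, scaling and estimate of spread came from all 12 libraries. In S38D cells 727 genes (10.9% of those tested) were lower and 708 (10.6%) higher in mitotic than in asynchronous libraries. The choice of these lists followed earlier results of these data. Genes that were lower in mitotic S38D cells stood higher in asynchronous S38A than in WT cells, with 173 higher, 24 lower and 530 that did not pass. This is 23.8% higher and 3.30% lower, beside 5.86 and 3.47% over all genes tested. Their median log2 difference was 0.29, and 534 of 727 were above 0. Genes that were higher in mitotic S38D cells went the other way, with 16 higher, 55 lower and 637 that did not pass, which is 2.26 and 7.77%. Their median was -0.21, and 214 of 708 were above 0. The 5257 genes not called between states in S38D had a median of 0.00, with 203 higher and 153 lower.

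The lists held more abundant genes than the rest, with median levels of 180 and 107 CPM against 60.1 CPM for genes in neither. Within the highest of the 5 bins of level, 128 of 365 genes lower in mitotic S38D cells were higher in S38A and 16 lower, while 9 of 231 genes higher in mitotic S38D cells were higher and 30 lower. In this bin, 15.5% of all genes were higher and 6.80% lower. Under all alternatives the lists were held as the main fit chose them, so their choice was not varied. The medians of these fixed lists kept their sign under all 12 alternatives, from 0.24 to 0.32 and from -0.26 to -0.17. The counts moved with the number of calls. DESeq2 found 93 higher and 12 lower in the former list and 7 higher and 29 lower in the latter. Without S38A replicate 1 these were 95, 15, 8 and 16, and without WT replicate 2 they were 107, 12, 5 and 35. Without S38A replicate 2, the lower count of the former list was 14, and the latter list held 10 higher and 34 lower. Without WT replicate 1 the latter list held 33 lower.

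The reads of each library showed the same order. Genes lower in mitotic S38D cells took 21.5 and 22.6% of the reads of tested genes in asynchronous WT libraries and 26.2 and 25.9% in asynchronous S38A libraries. Genes higher in mitotic S38D cells took 16.7 and 15.6% in WT and 13.9 and 14.2% in S38A. The libraries of the genotypes did not overlap in either share. In mitotic cells the former list took 13.2 and 13.4% in WT against 17.6 and 17.7% in S38A, and the latter 24.9 and 25.6% against 21.4 and 21.0%. In both states the S38A libraries thus lay further than the WT libraries in the direction from mitotic to asynchronous S38D cells. The asynchronous S38D libraries, which helped to choose the lists, had 22.9 and 22.0% and 16.5 and 17.3%. In both shares they overlapped the asynchronous WT libraries, and the asynchronous S38A libraries lay beyond them. Asynchronous S38A cells were thus not closer to asynchronous S38D cells than WT cells were. In a bulk lysate a change in the share of cells in a cell cycle phase and a change in each cell cannot be told apart.

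**Figure D4:**
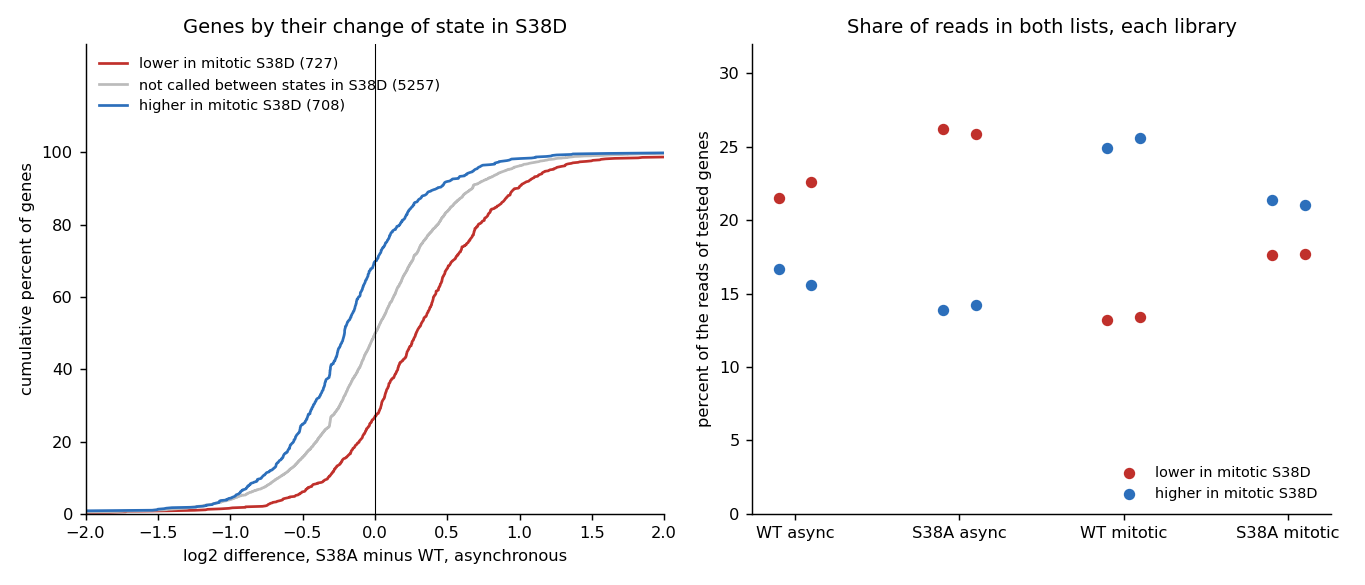
Left, the cumulative percent of genes by log2 difference, S38A minus WT, in asynchronous cells, for the 727 genes lower and the 708 genes higher in mitotic than asynchronous S38D cells and the 5257 called in neither direction. Right, the percent of the reads of tested genes that fell in the former (red) and the latter list (blue) in each WT and S38A library. The red curve lies to the right with a median of 0.29 and the blue curve to the left with a median of -0.21.

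Genes that mark cell cycle phases, listed by ID in the scran package, gave smaller counts. DNA replication is confined to S phase, and the G2 and M phases prepare and carry out division. Of 81 genes marking G1, 10 were higher and 3 lower in asynchronous S38A cells (12.3 and 3.70%, beside 5.86 and 3.47% over all genes tested), with a median log2 difference of 0.07. Genes marking G2 and M took 1.28 and 1.26% of the reads of tested genes in WT libraries and 1.58 and 1.54% in S38A. Of 74 genes marking S phase 13 were higher and 1 lower (17.6 and 1.35%, beside the same 5.86 and 3.47%), with 5 to 8 higher when any of the 4 libraries was left out. They took 1.44 and 1.52% against 1.77 and 1.68%. Genes marking G1 took 1.35 and 1.31% against 1.45 and 1.37%. In each of these lists both S38A libraries lay above both WT libraries, by the smallest margin for G1. Among the 67 genes marking G2 and M, 24 were lower and 2 higher in mitotic than in asynchronous S38D cells. For S genes these were 18 and 6 of 74 and for G1 genes 3 and 7 of 81. Over all genes tested they were 10.9 and 10.6%. The marker lists and the S38D lists are therefore not independent. Of the 67 genes marking G2 and M, 13 were higher and 1 lower in S38A (19.4 and 1.49%, beside 5.86 and 3.47%). Without S38A replicate 1, 7 were higher and 0 lower, and without WT replicate 2, 8 and 0. The lists lay at higher levels than the 70.4 CPM median of all genes tested, with medians of 107 CPM for G1, 146 CPM for S and 168 CPM for G2 and M. In the highest bin of level, where 15.5% of all genes were higher and 6.80% lower, 7 of 21 G1 genes were higher and 1 lower, 8 of 28 S genes were higher and 1 lower, and 9 of 27 G2 and M genes were higher and 1 lower. For G1 the number higher was 4 to 6 when any of the 4 libraries was left out, and 1 was lower without S38A replicate 1.

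Whether the difference between S38A and WT depended on the state was tested for each gene, and few genes passed. The test of asynchronous minus mitotic difference called 30 of 6692 genes (0.448%), of which 20 were positive and 10 negative. An unadjusted p under 0.05 was found for 613. S38A differed from WT in asynchronous cells for 14 of the 30 genes and in mitotic cells for 24, with 8 in both, beside 9.32 and 13.2% of all genes tested, and 21 had opposite signs in the states. The test that chose the 30 is built from these same differences, so these counts are a description.

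ENSMUSG00000031004.8 had the smallest adjusted p of this test. It had 328 and 428 CPM in asynchronous WT and 3370 and 2180 CPM in asynchronous S38A libraries, a log2 difference of 2.87 ± 0.16 (SE, adjusted p = 8.3e-24, edgeR). The gene took 0.0335 and 0.0439% of the reads of tested genes in WT and 0.334 and 0.215% in S38A libraries. The asynchronous S38D libraries lay between, at 1020 and 820 CPM, and differed from WT (adjusted p = 4.38e-08, edgeR) and from S38A (adjusted p = 1.12e-13, edgeR). In mitotic cells the difference was smaller, with 577 and 591 CPM in WT and 978 and 1000 CPM in S38A, and the change of the difference was 2.11 ± 0.22 (SE, adjusted p = 2.34e-10, edgeR).

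ENSMUSG00000031604.10 differed from this pattern. Its asynchronous levels did not pass the test, at 891 and 909 CPM in WT and 764 and 886 CPM in S38A (log2 difference -0.13 ± 0.14, SE, adjusted p = 0.665, edgeR). Asynchronous S38D libraries, at 837 and 983 CPM, did not pass against WT either (adjusted p = 0.981, edgeR). In mitotic cells WT libraries had 1420 and 1490 CPM and S38A libraries 581 and 450 CPM. The mitotic WT libraries lay above the asynchronous ones and the mitotic S38A libraries below theirs, and the change of the difference was 1.36 ± 0.20 (SE, adjusted p = 4.81e-06, edgeR).

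The negative genes were led by ENSMUSG00000026234.12 and ENSMUSG00000005413.8. The former was higher in S38A in both states, with 844 and 1090 CPM in WT and 1750 and 1970 CPM in S38A asynchronous libraries, and 543 and 604 CPM against 2310 and 2300 CPM in mitotic ones. The difference was smaller in asynchronous cells (change -1.06 ± 0.19, SE, adjusted p = 0.000408, edgeR). Asynchronous S38D libraries were higher than WT for this gene too, at 1580 and 1290 CPM (adjusted p = 0.00463, edgeR). ENSMUSG00000005413.8 turned its direction between states. It was lower in asynchronous S38A cells, at 614 and 610 CPM in WT and 396 and 369 CPM in S38A libraries (log2 difference -0.67 ± 0.16, SE, adjusted p = 0.00182, edgeR). Asynchronous S38D libraries were lower than WT as well, at 320 and 264 CPM (adjusted p = 1.34e-06, edgeR), and did not pass against S38A (adjusted p = 0.124, edgeR). In mitotic cells the gene was higher in S38A, at 446 and 446 CPM in WT against 623 and 628 CPM in S38A (log2 difference 0.49 ± 0.15, SE, adjusted p = 0.0189, edgeR). The change of the difference was -1.16 ± 0.22 (SE, adjusted p = 0.000743, edgeR).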

How the data were processed

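The authors deposited 1 table of raw read counts per library, one row for each of 22520 versioned Ensembl gene IDs. Per the submitters' processing notes, the build was mm10 and the tools were HTSeq 0.9.1, STAR 2.5.3a, DESeq2 1.18.1, bcl2fastq 2.16.0.10 and Bowtie2 2.3.2, with no roles given. Coding sequence is named only in the file naming. The sources used here do not give the use of strand or of the adaptors' random bases. Counting intervals therefore cover counting error only, and floor values only that of the group without reads. Overlapping or near-identical genes may share reads. The 5 summary rows were kept out of all tests; reads outside counted features were 19.2 to 25.8% and ambiguous reads 0.524 to 0.673% of uniquely aligned reads in the 4 libraries.

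Counts of all 12 libraries entered 1 model of 6 groups in edgeR 4.0.16 (R 4.3.3; TMM, filterByExpr with a minimum count of 10, quasi-likelihood F test, common biological coefficient of variation 0.0868). Adjustment was over all 6692 genes tested, and standard errors are the log2 difference over the square root of F. The code of the test was run on counts simulated with the fitted spread and independent libraries. Such a run cannot check whether that spread and independence hold in these data. Log2 CPM used a prior count of 2. Cell cycle lists came from scran 1.30.0: genes first on balance in the marker pairs of 1 phase and second in both others. These lists, the S38D lists and their alternatives were added after the data were seen.

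Libraries, lists and tests were chosen with earlier results of these data known. Named genes followed the rule in the text (largest log2 difference, with a mean of at least 10 CPM and no overlap, or for the difference between states smallest p), reduced from a longer rule by symbol to 2 IDs per direction. The reference table paired 0 IDs with a symbol, so 37 symbol lists, marker checks and summaries by chromosome and protein length were not run. Same-numbered libraries did not deviate together (correlations of deviations -0.21 to 0.09 over 15 pairs of groups, 0.09 for WT and S38A), so the numbers were not taken as pairs. Alternatives were other scalings, filters and tests, fewer libraries, a replicate block and leaving out each of the 4 libraries.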

Additional observations from a re-analysis of the deposited data

Results flagged for a closer look

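The difference between S38A and WT changed with the state for 30 genes in a test of the difference itself (edgeR quasi-likelihood interaction, adjusted over 6692 genes). On the log2 scale, asynchronous minus mitotic, it was 2.11 for ENSMUSG00000031004.8, 1.36 for ENSMUSG00000031604.10, -1.06 for ENSMUSG00000026234.12 and -1.16 for ENSMUSG00000005413.8. Among the 20 positive genes the median log2 difference was 0.22 in asynchronous and -1.18 in mitotic cells, and among the 10 negative genes -0.34 and 0.50. Of the 20 positive genes 4, and of the 10 negative genes 5, were lower in mitotic than asynchronous S38D cells, beside 10.9% of all genes tested, and 1 and 0 were higher, beside 10.6%. With each of the 4 asynchronous libraries left out in turn, these 4 genes kept their calls, at 1.73 to 2.39, 1.26 to 1.44, -1.25 to -0.87 and -1.25 to -1.11 in the order above (largest adjusted p = 0.015, edgeR). The mitotic libraries were not left out.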

How the results depend on the processing

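The number of genes called between asynchronous S38A and WT cells moved from 624 to 238 with DESeq2, 458 with the 4 libraries alone and 457 with the 6 asynchronous ones, and to between 262 and 422 when 1 library was left out, where more genes were tested and the lone library was assumed to vary like the other groups. Of the 624 calls, 238 were kept with DESeq2, 565 with library totals and 249 without S38A replicate 1; 4 genes were called in the opposite direction without WT replicate 1 and 0 under the other 11 alternatives. The share of higher genes among calls was 62.8%, 58.1% with DESeq2 size factors, 53.1% with library totals and 58.1 to 66.0% with 1 library left out. With the replicate number as a block, 576 genes were called, 572 of them shared, and no named gene lost its call. The 4 genes named first got no adjusted p with DESeq2, so none of them is among its 238 calls. Their absence there is a missing value and not a failed test. With the 4 libraries alone and with the 6 asynchronous ones, ENSMUSG00000024799.14 and ENSMUSG00000034156.16 were not tested. The latter was also not tested under the filter of a mean of at least 10 CPM by total coding reads.

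With DESeq2, 93 genes lower in mitotic S38D cells were higher and 12 lower in S38A, 7 genes higher in mitotic S38D cells were higher and 29 lower. It called 3 G1 and 5 S marker genes higher and 0 G2M marker genes lower. With the 4 libraries alone, 10 genes higher in mitotic S38D cells, 6 G1 and 7 S genes were higher; with the 6 asynchronous libraries these were 10, 5 and 7. Leaving out 1 library gave 95 to 130 higher and 12 to 21 lower of the genes lower in mitotic S38D cells, and 5 to 16 higher and 16 to 35 lower of those higher in them. It gave 4 to 6 higher and 1 to 3 lower G1 genes, 5 to 8 higher S genes, and 7 to 12 higher and 0 to 1 lower G2M genes. Of genes higher in asynchronous S38A, 98.0% were above 0 in mitotic cells with DESeq2 and 89.0 to 97.1% with 1 library left out. The differences between states numbered 21 to 42 under all alternatives run. The summaries by chromosome and protein length were not run, since no gene ID could be named. The cause of the other shifts was not tested. Low depth limits the rest: genes with few reads could be called only for large differences.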
